A study of Homo sapiens with 12 samples.

Results

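The genes described here build and supervise protein folding in the endoplasmic reticulum. They comprise the sensors of the unfolded protein response, the chaperones and oxidoreductases of the lumen, the machinery of endoplasmic reticulum-associated degradation, and parts of the translocation and export apparatus. The 37 genes were chosen by name, with earlier results of these data known. Counts among them, set beside all probe sets below, therefore describe the list and are not independent support. Of the 37, 36 matched 1 probe set each among the 21448 probe sets of the array, 17709 of which carried a gene symbol. HSP90B1, the HSP90 chaperone of the compartment, was not analysed here. RNA came from H1975 and PC-9, human lung adenocarcinoma lines with activating mutations in EGFR, the epidermal growth factor receptor. The 12 arrays form 4 groups of 3: PC-9 SK-216 cells, PC-9 tolerant cells, H1975 SK-216 cells and H1975 tolerant cells. Tolerant cells are those alive at day 8 of culture in 0.5 µM osimertinib, which inhibits EGFR. SK-216 cells are such cells that were still alive 48 h after 100 µM SK-216, a compound that the labels give by code, was added.

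All 4 groups had thus been exposed to osimertinib, and no comparison here is with unexposed cells. For the SK-216 groups the source label speaks of naive cells, whereas title, description and treatment label speak of tolerant cells, and the treatment label was followed. The labels do not say whether osimertinib continued beside SK-216, and the tolerant cells were collected before the 48 h began, so SK-216 and the additional time cannot be told apart. Both groups hold survivors only, and in RNA of whole cultures a change in every cell and a change in the share of cells with a given level cannot be told apart. Nothing in the labels says that the 3 arrays of a group came from separate cultures, so p-values measure array-to-array spread within a group, which could be technical only. Levels below are deposited log2 signals, in which a difference of 1 is a 2-fold difference. A level of one probe set is not comparable with that of another.

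The arrays of a group correlated at 0.9934 to 0.9953 over all probe sets. The within-group SD of the 36 genes had a median of 0.11 and ran from 0.01 to 0.55 on the log2 scale. Of the epithelial markers, KRT8 averaged 16.41 and 16.30 in PC-9 SK-216 and tolerant cells, and 15.89 and 16.13 in H1975 SK-216 and tolerant cells. EPCAM averaged 15.43 and 15.29 in PC-9 and 8.95 and 8.18 in H1975, in the same order of groups. CDH1, which encodes E-cadherin, averaged 12.15 and 11.95 in PC-9, against 6.04 in H1975 SK-216 cells and 7.58 in H1975 tolerant cells. The lung epithelial markers NKX2-1, NAPSA, SFTPB, SFTPC and SFTPA1 had group means of 3.40 to 5.19. SLC34A2, the remaining one of the 6, averaged 4.10 and 5.28 in PC-9 SK-216 and tolerant cells, and 6.22 and 6.68 in H1975 SK-216 and tolerant cells. The 349 olfactory receptor probe sets, taken as genes these cells are unlikely to express, had a median of 3.61, and 95% of them lay below 5.05. With SK-216 in H1975, 4 of 6 epithelial markers passed the test, 2 in each direction. Of the other markers 0 of 6 lung epithelial, 0 of 5 leukocyte, 0 of 5 endothelial and 1 of 5 fibroblast markers passed. Over all probe sets 3.8% passed. In PC-9, 1 of the 27 markers passed, against 0.443% of all probe sets. It was SLC34A2, which was lower with SK-216 (-1.19 ± 0.25, adjusted p = 0.0274). Its PC-9 SK-216 mean of 4.10 is below 5.05, so the size of this change is uncertain. The part of the markers in the results below was not tested.

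Proteins of the secretory pathway enter the endoplasmic reticulum unfolded, are held by the HSP70 chaperone HSPA5 (BiP) and its J-domain partners, and receive disulphide bonds from the protein disulphide isomerases. Terminally misfolded chains are pulled back to the cytosol and destroyed by the proteasome. When unfolded chains accumulate, the sensors ERN1 (IRE1), EIF2AK3 (PERK) and ATF6 are activated; ERN1 splices the XBP1 transcript, ATF6 is cut to release a transcription factor, and EIF2AK3 slows translation while ATF4 is made. Spliced XBP1 and cleaved ATF6 then raise transcription of chaperone and degradation genes, many through a promoter motif called the endoplasmic reticulum stress element (ERSE).

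In H1975, 9 of the 36 genes were higher and 1 was lower in SK-216 cells than in tolerant cells (limma, Benjamini-Hochberg adjustment over all probe sets, adjusted p below 0.05). The 9 were the chaperones HSPA5 and HYOU1, the co-chaperone DNAJB9, the small lumenal factors SDF2L1 and MANF, the oxidase ERO1A, and the degradation factors HERPUD1, EDEM1 and DERL3. The changes lay between 0.46 and 1.03 on the log2 scale. ATF6B, a relative of ATF6, was the gene that fell. Over all probe sets, 1.44% passed the test as higher and 2.35% as lower. The median change of the 36 genes was 0.22, against 0.01 for all probe sets. Of the 36 changes 27 were above 0, against 51.6% of all probe sets.

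The upstream sequences of these genes were searched for the motifs through which the response is known to act. RefSeq promoter windows (GRCh38.p14), from 250 bases before to 50 bases after a transcription start, were found for 32 of the 36 genes. Both strands were searched for ERSE (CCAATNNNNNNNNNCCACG), ERSE-II (ATTGGNCCACG), the core of the unfolded protein response element UPRE (TGACGTGG), and the composite C/EBP-ATF element TGATGNAAN, at which ATF4 can bind. ERSE lay in windows of 7 of the 32 genes (21.9%), against 25 of 27305 genes of the table (0.0916%), and ERSE-II in those of 3 (9.38%), against 0.0696%. The 10 genes with either element were CALR, CANX, CRELD2, ERO1B, HERPUD1, HSPA5, HYOU1, PDIA6, SDF2L1 and XBP1. The UPRE core was found in 3 of the 32 genes (9.38%), against 0.927% of all genes, and the composite element in 1 (3.12%), against 4.45%. The motifs were picked because this response is known to act through them. Their shares among its genes are thus not independent of that choice and were not tested. The 250 bases before the start are shown for the 4 genes with ERSE or ERSE-II that rose in H1975, and for XBP1, 5′ to 3′ on the strand of the gene, with the matches in capitals. A match read on the opposite strand appears as its reverse complement.
HERPUD1: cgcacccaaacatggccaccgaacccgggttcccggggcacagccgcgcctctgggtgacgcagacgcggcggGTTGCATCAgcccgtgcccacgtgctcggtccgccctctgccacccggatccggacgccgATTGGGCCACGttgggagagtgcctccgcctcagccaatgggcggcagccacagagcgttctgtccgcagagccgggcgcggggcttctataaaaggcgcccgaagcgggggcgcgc
HSPA5: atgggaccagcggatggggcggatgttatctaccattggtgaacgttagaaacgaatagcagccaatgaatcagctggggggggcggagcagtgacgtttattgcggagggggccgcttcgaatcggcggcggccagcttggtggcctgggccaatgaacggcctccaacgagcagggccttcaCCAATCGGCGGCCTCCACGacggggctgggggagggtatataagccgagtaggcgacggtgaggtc
HYOU1: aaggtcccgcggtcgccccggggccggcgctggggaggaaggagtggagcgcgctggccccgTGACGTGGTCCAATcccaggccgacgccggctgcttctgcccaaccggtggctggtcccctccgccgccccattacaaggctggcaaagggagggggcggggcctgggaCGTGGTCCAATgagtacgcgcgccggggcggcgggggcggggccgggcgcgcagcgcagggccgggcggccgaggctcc
SDF2L1: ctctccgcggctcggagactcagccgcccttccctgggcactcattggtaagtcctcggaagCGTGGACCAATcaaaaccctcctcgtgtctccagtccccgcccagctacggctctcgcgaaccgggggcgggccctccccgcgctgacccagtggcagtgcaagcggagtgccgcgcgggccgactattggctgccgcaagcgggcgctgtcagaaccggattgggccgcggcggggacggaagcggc
XBP1: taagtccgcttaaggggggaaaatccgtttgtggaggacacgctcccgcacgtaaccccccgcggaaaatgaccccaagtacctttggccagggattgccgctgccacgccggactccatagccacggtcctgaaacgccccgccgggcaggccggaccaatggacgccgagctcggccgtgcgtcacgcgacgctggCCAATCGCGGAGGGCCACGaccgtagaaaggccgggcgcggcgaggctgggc
The HERPUD1 window is chr16:56931892-56932141 on the plus strand, with the composite element first and ERSE-II, whose first base is at position -117 from the start, second. The HSPA5 window is chr9:125241344-125241593 on the minus strand, with ERSE from position -66. The HYOU1 window is chr11:119057206-119057455 on the minus strand, in which a UPRE core overlaps the first of 2 ERSE-II matches. The SDF2L1 window is chr22:21642052-21642301 on the plus strand and the XBP1 window chr22:28800570-28800819 on the minus strand. Only matches to every fixed letter of a motif were counted, so near matches and sites outside the windows are not marked. The HERPUD1 window, for example, holds an unmarked stretch that differs from ERSE only in the last letter. A match is a description of letters, not of a factor bound there.

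**Figure D1:**
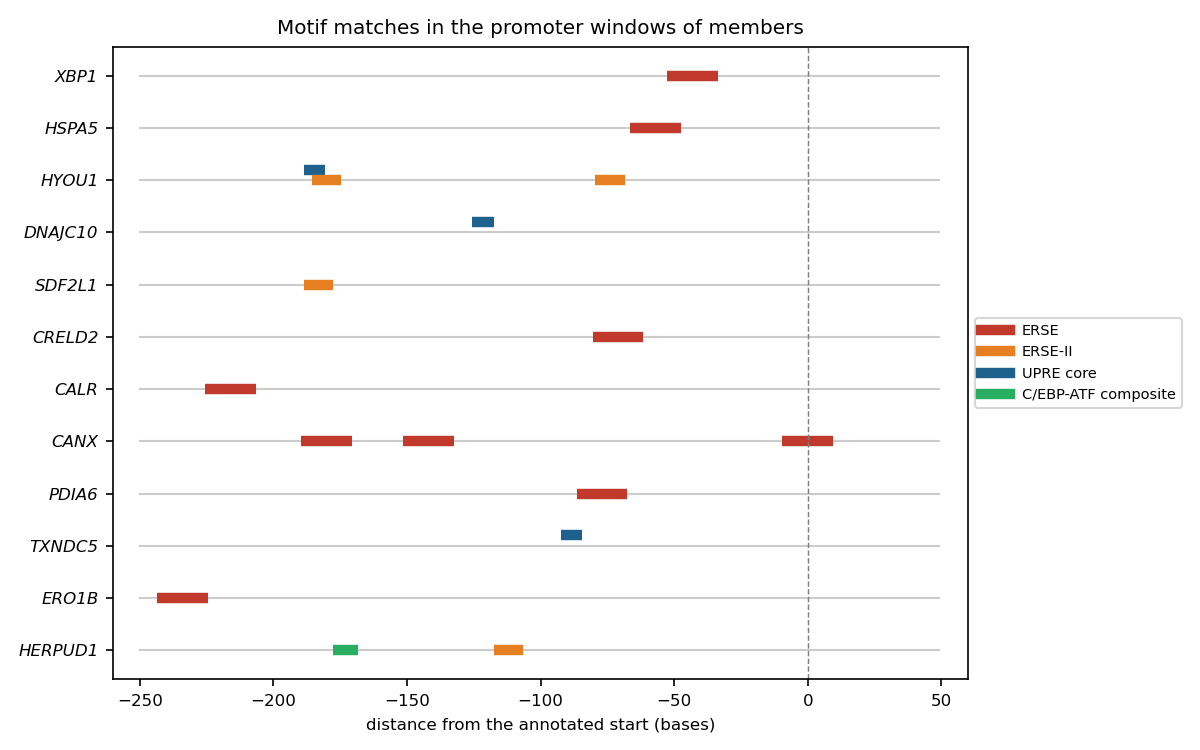
Positions of the 4 searched motifs (marks) in the promoter windows of member genes with a match, in bases from the annotated transcription start (x axis). ERSE and ERSE-II lie at differing distances, from position -243 in ERO1B to a match across the start itself in CANX, whose single site is drawn once for each of 3 annotated starts.

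Among genes with a promoter window, those with an exact match to ERSE or ERSE-II had the higher median change in H1975, but 4 genes of each kind rose. The 10 genes with ERSE or ERSE-II had a median change of 0.40 (0.06 to 0.84), and 4 of the 10 rose. The 22 genes with a window and no exact match to either element had a median of 0.16 (-0.42 to 0.85), and 4 of the 22 rose and 1 fell. Genes with a near match or a more distant site count among these. The 4 genes with no window had a median of 0.15 (-0.02 to 1.03), and 1 of them, DERL3, rose. In PC-9 the medians were 0.17 with and 0.14 without, and no gene of either kind passed the test. The difference between the sets of genes was not tested.

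Among the sensors and transducers, 1 of 5 passed the test in H1975. ATF6B, a membrane-bound transcription factor related to ATF6, had 11.55, 11.30 and 11.61 in SK-216 cells, against 11.87, 11.89 and 11.97 in tolerant cells. Every SK-216 array was below every tolerant array, and the change was -0.42 ± 0.11 (SE, n = 3 arrays per group, adjusted p = 0.0314). The call ended without SK-216 array 1 or 2, or without any one of the 3 tolerant arrays (highest adjusted p = 0.158). ATF6 had 12.50, 12.79 and 12.77 in SK-216 cells, against 12.50, 12.46 and 12.46 in tolerant cells, a change of 0.21 ± 0.11 (adjusted p = 0.407). ERN1, the sensor that splices XBP1, had 9.76, 10.08 and 9.85 in SK-216 cells, against 10.43, 10.09 and 9.64 in tolerant cells, and the groups overlapped (-0.16 ± 0.19, adjusted p = 0.807). EIF2AK3 had 9.29, 9.20 and 9.43 against 9.14, 9.30 and 8.75 in the same groups (0.24 ± 0.19, adjusted p = 0.652). Neither sensor kinase therefore separated the groups. XBP1 had 12.51, 12.54 and 12.70 in SK-216 cells, against 12.19, 12.40 and 12.33 in tolerant cells. Its arrays did not overlap, yet the change of 0.28 ± 0.11 missed the threshold (adjusted p = 0.192). The probe set gives the total transcript and not its splicing, and arrays give neither cleavage nor phosphorylation of the sensors.

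Both measured HSP70-family chaperones rose. HSPA5 had 16.36, 16.48 and 16.61 in H1975 SK-216 cells, against 16.07, 16.01 and 15.99 in tolerant cells. All SK-216 arrays were above all tolerant arrays, with a change of 0.46 ± 0.07, or 1.38-fold (adjusted p = 0.000107). HYOU1, which exchanges nucleotide on HSPA5, had 15.69, 15.50 and 15.85 in SK-216 cells, against 15.21, 15.21 and 15.08 in tolerant cells. Its groups did not overlap either, and the change was 0.51 ± 0.09 (1.43-fold, adjusted p = 0.000501).

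Of the 4 J-domain co-chaperones, which stimulate the ATPase of HSPA5, DNAJB9 passed the test. It had 11.95, 11.71 and 11.83 in SK-216 cells, against 10.93, 10.90 and 11.11 in tolerant cells, a gap wider than the range of either group. The change was 0.85 ± 0.11, or 1.80-fold (adjusted p = 2.4e-05). DNAJB11, DNAJC3 and DNAJC10 changed by 0.05 to 0.25 and did not pass.

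Of the 3 small secretory pathway factors, SDF2L1 and MANF rose. SDF2L1, a partner of the J-domain co-chaperones, had 8.71, 9.13 and 8.69 in SK-216 cells, against 8.25, 8.28 and 7.84 in tolerant cells (0.72 ± 0.19, adjusted p = 0.0326). MANF, a secreted factor that binds HSPA5, had 9.57, 9.40 and 9.56 in SK-216 cells, against 8.75, 8.61 and 9.04 in tolerant cells (0.71 ± 0.18, adjusted p = 0.0209). Neither gene's groups overlapped. Both calls ended in 4 of the 12 fits that left out 1 array: for SDF2L1 without SK-216 array 1 or 2 or tolerant array 1 or 3 (highest adjusted p = 0.187), and for MANF without SK-216 array 1 or 3 or tolerant array 1 or 2 (highest adjusted p = 0.113). CRELD2 had a change of 0.35 ± 0.22 (adjusted p = 0.532). The lectin chaperones of the glycoprotein cycle, CALR and CANX, had changes of 0.06 ± 0.06 and 0.19 ± 0.07, and neither passed.

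Of 7 oxidoreductases, ERO1A rose. This oxidase regenerates the disulphide bond of the isomerases. It had 15.90, 15.94 and 16.02 in SK-216 cells, against 15.48, 15.57 and 15.44 in tolerant cells, with no overlap (0.46 ± 0.08, 1.37-fold, adjusted p = 0.000565). The isomerases PDIA3, PDIA4, PDIA6, P4HB and TXNDC5 changed by -0.12 to 0.22, and none passed. ERO1B, a second oxidase, had 4.83, 4.82 and 4.99 in SK-216 cells, against 4.35, 4.70 and 3.63 in tolerant cells (0.65 ± 0.25, adjusted p = 0.189). All of these values are below the 95th percentile of the olfactory receptor probe sets, 5.05.

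Of 8 degradation genes, 3 rose. HERPUD1, a membrane protein that recruits the ubiquitin ligase complex, had 13.63, 13.66 and 13.58 in SK-216 cells, against 12.74, 12.73 and 12.89 in tolerant cells. It had the smallest adjusted p of the 36 genes, with a change of 0.84 ± 0.09, or 1.79-fold (adjusted p = 2.41e-06). DERL3, a member of the derlin family of channel-forming membrane proteins, had 6.08, 6.19 and 6.41 in SK-216 cells, against 5.46, 5.02 and 5.11 in tolerant cells. Its change was the largest of the 36 in size, 1.03 ± 0.20 or 2.04-fold (adjusted p = 0.00305), and its tolerant arrays lay around the upper end of the olfactory receptor probe sets. EDEM1, which directs mannose-trimmed glycoproteins to degradation, had 8.91, 8.75 and 9.25 in SK-216 cells, against 8.42, 8.11 and 8.11 in tolerant cells (0.76 ± 0.18, adjusted p = 0.0149). None of the 3 genes had overlapping groups. The EDEM1 call ended without SK-216 array 3 or tolerant array 2 or 3 (highest adjusted p = 0.108). The ubiquitin ligase SYVN1 had a change of 0.38 ± 0.13 (adjusted p = 0.141). SEL1L, OS9, DERL1 and DERL2 changed by -0.08 to 0.14 and did not pass.

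None of the 5 translocation and export genes passed the test in H1975. SEC61B, a subunit of the translocation channel, had 11.91, 12.29 and 11.66 in SK-216 cells, against 12.16, 11.90 and 12.23 in tolerant cells, with overlapping groups (-0.14 ± 0.14, adjusted p = 0.730). SEC61A1, the channel's pore subunit, SSR1 of the translocon-associated complex, SPCS3 of the signal peptidase and SEC24D of the vesicle coat changed by -0.01 to 0.30.

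In the H1975 comparison, 18 of the 36 genes had every SK-216 array above every tolerant array, against 8.95% of all probe sets. HSPA5, HYOU1, DNAJB9, ERO1A, HERPUD1 and DERL3 kept their calls in all 12 fits that left out 1 array. Without a trend of variance on level only DNAJB9, HERPUD1 and DERL3 passed, and the adjusted p of HSPA5, HYOU1 and ERO1A became 0.0587, 0.0624 and 0.0884.

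**Figure D2:**
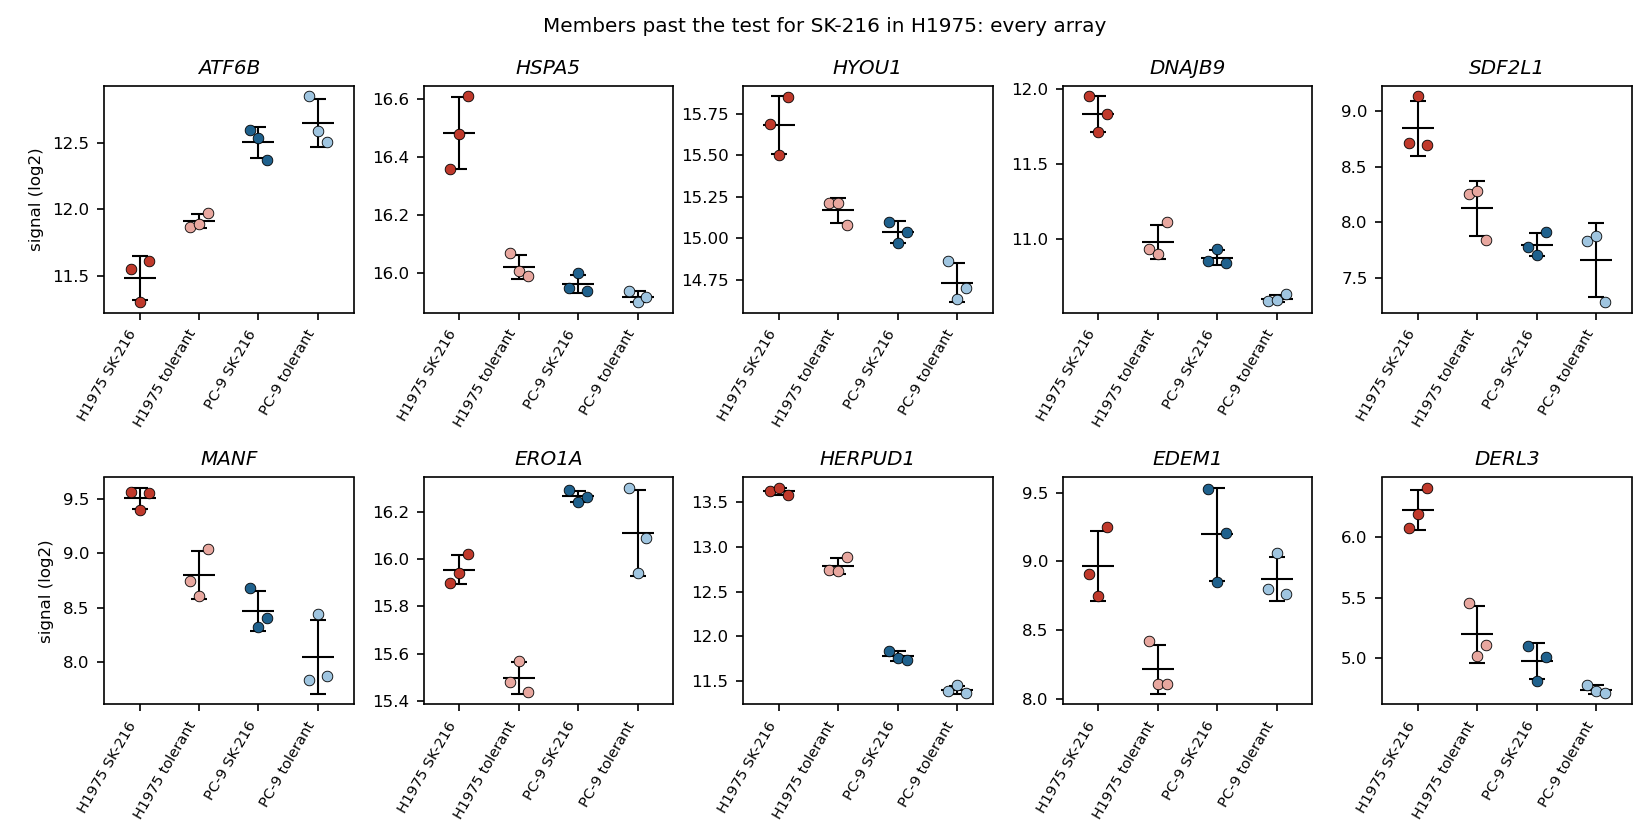
Deposited log2 signal of each array (points) with the group mean ± SD (black bars) for the 10 genes that passed the test for SK-216 in H1975, 1 panel per gene with its own y axis, 3 arrays per group. In H1975 the SK-216 arrays lie above the tolerant arrays in 9 panels and below them for ATF6B.

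**Figure D3:**
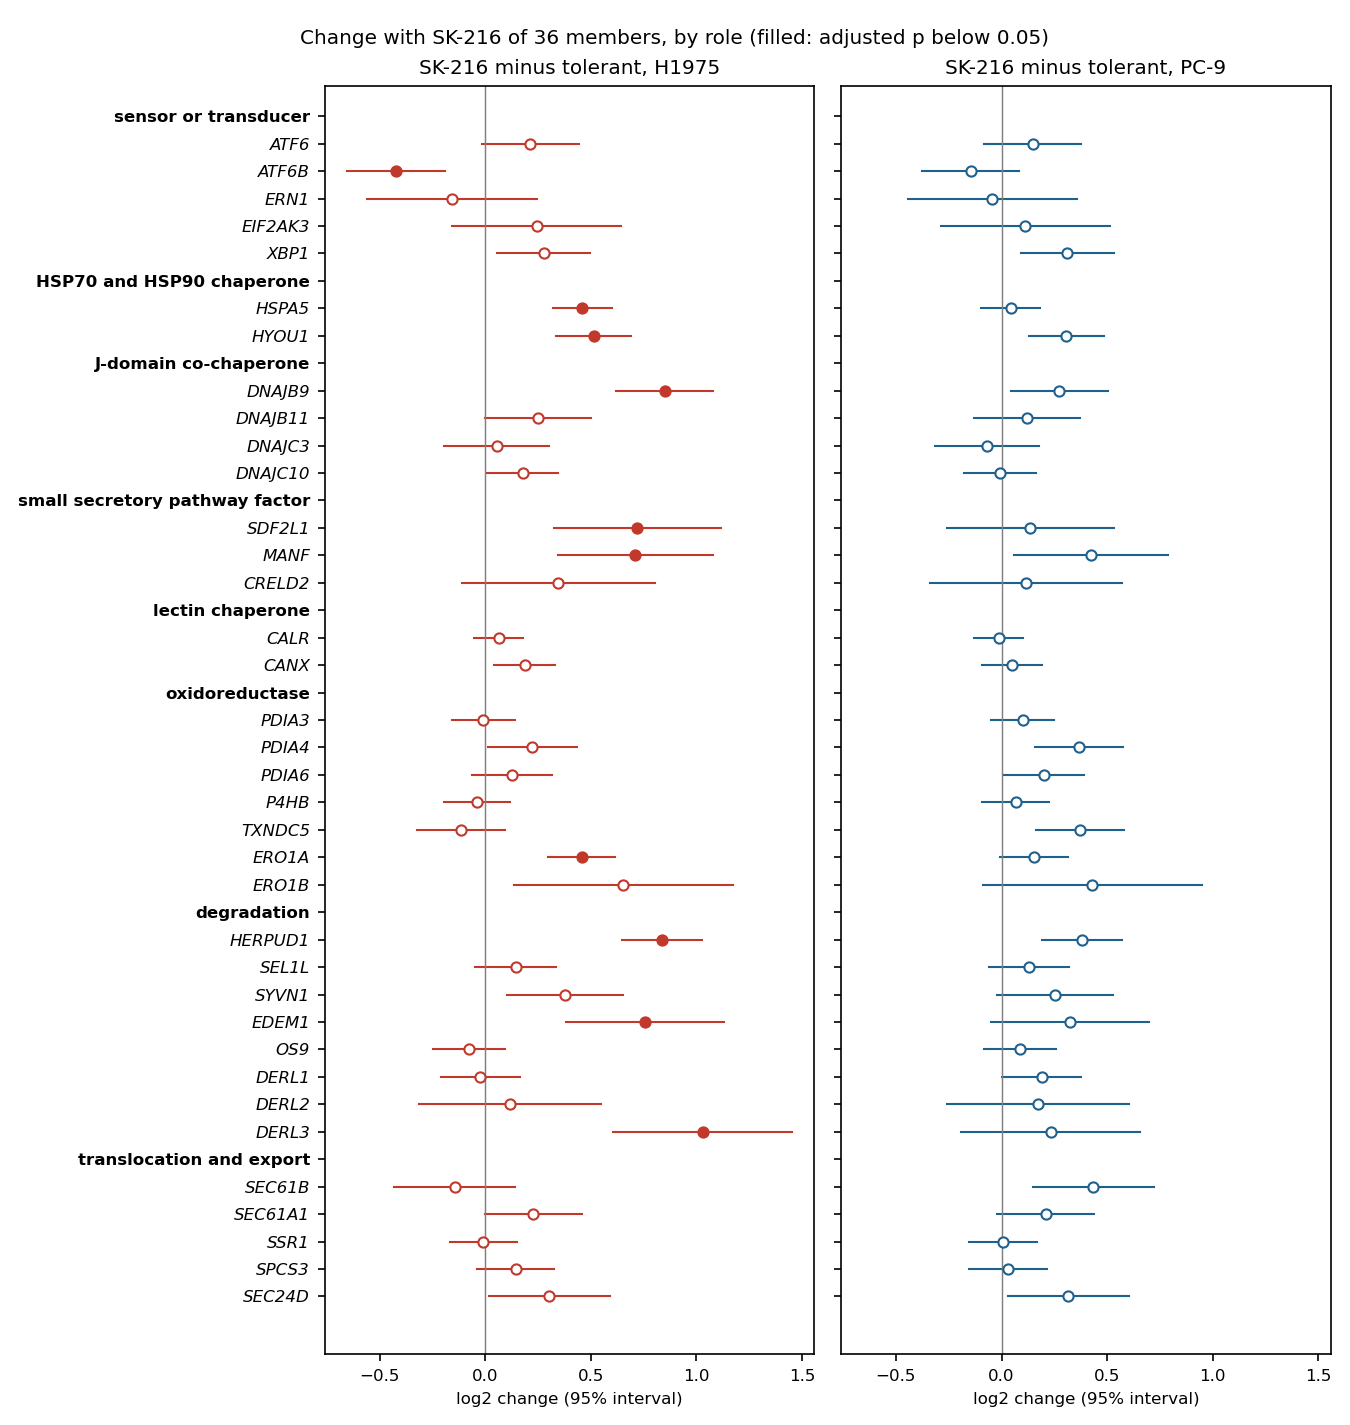
Log2 change with SK-216 (SK-216 minus tolerant, with 95% intervals of the limma fit) for the 36 genes by role, in H1975 and PC-9; filled points passed the test. The 10 filled points are all in H1975, from -0.42 for ATF6B to 1.03 for DERL3.

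In PC-9, none of the 36 genes passed the test between SK-216 and tolerant cells. By limma, 0 passed at an adjusted p below 0.05, and 11 had an unadjusted p below 0.05, all of them higher with SK-216. Over all probe sets 0.373% passed as higher, 0.0699% as lower, and 6.39% were higher at an unadjusted p below 0.05. The median change of the 36 genes was 0.15, and 31 of the 36 were above 0, against 49.5% of all probe sets. In 11 genes every SK-216 array was above every tolerant array, against 8.21% of all probe sets. Bright probe sets leaned upward in PC-9. The 5016 probe sets with a mean level above 10 had a median change of 0.04 in PC-9 and -0.02 in H1975. Their changes were above 0 for 59.4% in PC-9 and 46.5% in H1975. The 27 of the 36 genes with a mean level above 10 had medians of 0.15 in PC-9 and 0.18 in H1975.

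HERPUD1 came closest to the threshold in PC-9. It had 11.84, 11.76 and 11.74 in SK-216 cells, against 11.39, 11.45 and 11.36 in tolerant cells, with no overlap (0.38 ± 0.09, adjusted p = 0.0740). It passed where the dimmest 30% of probe sets were left out (adjusted p = 0.0483). MANF had 8.68, 8.32 and 8.41 in SK-216 cells, against 7.83, 8.44 and 7.87 in tolerant cells, with overlap (0.42 ± 0.18, adjusted p = 0.374). SEC61B had 11.85, 11.96 and 11.69 in SK-216 cells, against 11.20, 11.52 and 11.48 in tolerant cells, with no overlap (0.43 ± 0.14, adjusted p = 0.210). ERO1B again stayed at olfactory receptor levels, with 3.69, 4.43 and 4.18 in SK-216 cells, against 3.81, 3.87 and 3.33 in tolerant cells (0.43 ± 0.25, adjusted p = 0.562). These were the 4 genes with the largest absolute change in PC-9.

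The 9 genes that rose in H1975 had changes of 0.04 to 0.42 in PC-9. They were picked by their result in H1975, so smaller changes in PC-9 can follow from that choice alone. HSPA5 had 15.95, 16.00 and 15.94 in PC-9 SK-216 cells, against 15.94, 15.90 and 15.92 in tolerant cells. The change was 0.04 with a 95% interval of -0.10 to 0.18, and its sign turned with quantile normalization. HYOU1 had 15.10, 14.97 and 15.04 in SK-216 cells, against 14.86, 14.63 and 14.70 in tolerant cells, without overlap (0.31 ± 0.09, adjusted p = 0.143). DNAJB9 had 10.85, 10.93 and 10.84 in SK-216 cells, against 10.58, 10.59 and 10.63 in tolerant cells, also without overlap (0.27 ± 0.11, adjusted p = 0.353). ERO1A had 16.29, 16.24 and 16.26 against 16.30, 15.94 and 16.09, and SDF2L1 had 7.78, 7.71 and 7.91 against 7.83, 7.88 and 7.28, SK-216 cells before tolerant cells. The groups of both overlapped. EDEM1 had 9.53, 8.85 and 9.21 in SK-216 cells, against 8.80, 9.06 and 8.76 in tolerant cells. DERL3 had 5.10, 4.81 and 5.01 in SK-216 cells, against 4.78, 4.73 and 4.71 in tolerant cells. EDEM1 overlapped between the groups and DERL3 did not, and neither passed the test. The PC-9 means of DERL3, 4.97 in SK-216 and 4.74 in tolerant cells, are below the 5.05 of the olfactory receptor probe sets.

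The sensors did not pass in PC-9 either. XBP1 had 10.85, 11.03 and 11.01 in SK-216 cells, against 10.58, 10.73 and 10.65 in tolerant cells, without overlap (0.31 ± 0.11, adjusted p = 0.251). ATF6 had 11.97, 11.91 and 11.81 in SK-216 cells, against 11.85, 11.51 and 11.89 in tolerant cells. ATF6B had 12.60, 12.54 and 12.37 against 12.85, 12.59 and 12.51 in the same groups, and the groups of both genes overlapped. ERN1 had 8.43, 7.92 and 8.52 in SK-216 cells, against 8.63, 8.17 and 8.20 in tolerant cells. EIF2AK3 had 7.79, 7.89 and 7.57 in SK-216 cells, against 7.96, 7.17 and 7.78 in tolerant cells. The changes of these 4 genes lay between -0.15 and 0.15, with adjusted p-values of 0.681 to 0.959.

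The SK-216 change itself was compared between the lines as the PC-9 change minus the H1975 change. HSPA5 was the gene among the 36 that passed, with a difference of -0.42 ± 0.10 (adjusted p = 0.0218). Over all probe sets 0.331% had a lower and 1.09% a higher change in PC-9. The HSPA5 call ended in 5 of the 12 fits that left out 1 array (H1975 SK-216 array 3, H1975 tolerant array 3, PC-9 SK-216 array 1 or 3, PC-9 tolerant array 3; highest adjusted p = 0.0719), and without a variance trend (adjusted p = 0.329). DNAJB9 had a difference of -0.58 ± 0.16 (adjusted p = 0.0689) and HERPUD1 of -0.46 ± 0.13 (adjusted p = 0.0860). For the other 7 genes that passed in H1975 the differences ran from -0.80 for DERL3 to 0.28 for ATF6B, with adjusted p-values of 0.205 to 0.695. The value of DERL3 rests on PC-9 levels below 5.05, so its size is uncertain. Of all 36 genes, 8 had an unadjusted p below 0.05 for the difference, 6 with the lower and 2 with the higher change in PC-9. The 2 were TXNDC5 (0.49 ± 0.14, adjusted p = 0.0915) and SEC61B (0.58 ± 0.20, adjusted p = 0.169), neither of which had passed in H1975. DNAJB9 passed with quantile normalization (adjusted p = 0.0308) and also with the dimmest 30% of probe sets left out, and HERPUD1 with quantile normalization (adjusted p = 0.0396).

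Across the 36 genes, 26 had the same sign in both lines, 24 were above 0 in both, and 22 had the larger signed change in H1975. The correlation of the changes was r = 0.50 (Spearman's rho = 0.48), against r = 0.03 over all probe sets. These references differ in level: 27 of the 36 genes had a mean level above 10, against 5016 of 21448 probe sets. No correlation at matched level was computed. The lines share no arrays, and the points are genes, which are not independent replicates, so these values describe the pattern without a test.

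**Figure D4:**
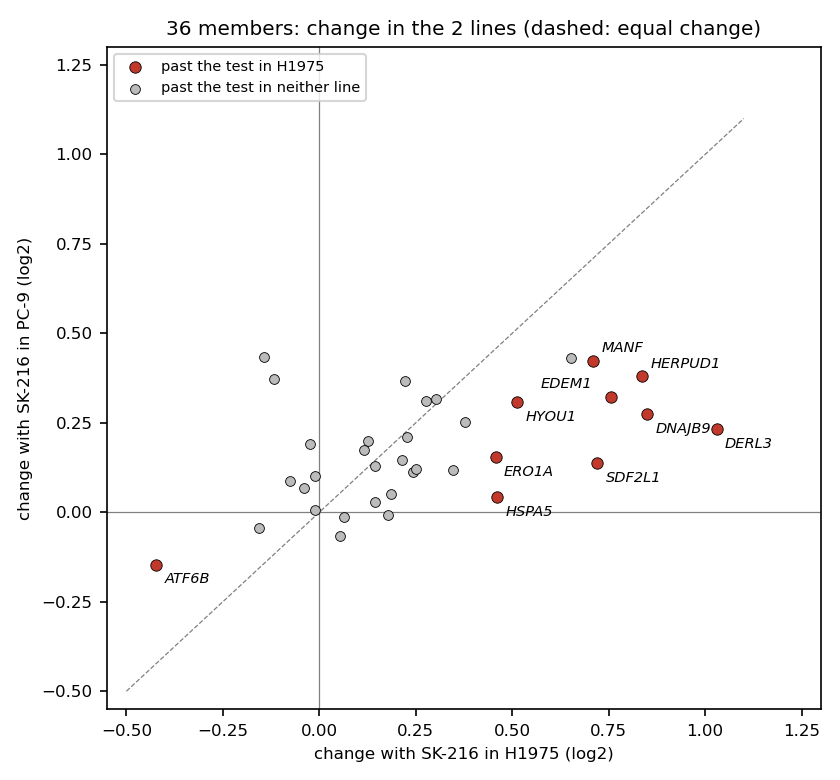
Log2 change with SK-216 in PC-9 (y axis) against that in H1975 (x axis) for the 36 genes, 1 point per gene, with the diagonal of equal change. DERL3, SDF2L1, DNAJB9 and HERPUD1 lie farthest right of the diagonal (differences of -0.80, -0.58, -0.58 and -0.46, PC-9 minus H1975), and 24 genes lie above 0 in both lines.

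More of the genes differed between the lines than changed with SK-216. Between tolerant PC-9 and tolerant H1975 cells, 27 of the 36 genes passed the test, 6 higher and 21 lower in PC-9. Over all probe sets 21.3% were higher and 22.7% lower. Level matters for this reference. With the dimmest 30% of probe sets left out, 60.8% of the rest passed, against 44% of all. Of the 35 genes kept there, 6 were higher and 22 lower in PC-9. The median difference, PC-9 minus H1975, was -0.46 for the 36 genes and 0.02 for all probe sets. SEL1L, the adaptor that links substrate recognition to the ligase SYVN1, differed most: it had 11.66, 11.59 and 11.54 in PC-9, against 15.15, 15.14 and 14.93 in H1975 (-3.48 ± 0.09). TXNDC5, an isomerase with several thioredoxin-like domains, had 10.80, 10.67 and 10.59 in PC-9, against 13.28, 13.33 and 13.45 in H1975 (-2.67 ± 0.10). No array of one line reached the range of the other in either gene.

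All 5 sensors and transducers passed in this comparison. ERN1 averaged 8.33 ± 0.26 in PC-9 and 10.05 ± 0.40 in H1975 (SD, n = 3 each), EIF2AK3 averaged 7.64 ± 0.41 and 9.06 ± 0.28, and XBP1 averaged 10.65 ± 0.08 and 12.31 ± 0.11. ATF6 was lower in PC-9 as well (-0.72 ± 0.11), whereas ATF6B was higher (0.74 ± 0.11). Among the degradation genes HERPUD1 (-1.39 ± 0.09), OS9 (-1.32 ± 0.08) and SYVN1 (-0.36 ± 0.13) were lower with SEL1L, and DERL1 (0.86 ± 0.09) and EDEM1 (0.66 ± 0.18) were higher. All 5 translocation and export genes differed, with SEC24D (-1.38 ± 0.14), SSR1, SEC61A1 and SEC61B lower and SPCS3 higher (1.00 ± 0.09). Among the chaperones HSPA5 differed by -0.10 ± 0.07 (adjusted p = 0.242) and HYOU1 by -0.44 ± 0.09, while the co-chaperone DNAJC10, a reductase of misfolded chains, was higher in PC-9 (1.03 ± 0.08). The isomerases PDIA3, PDIA4 and PDIA6 were lower in PC-9 by 0.34 to 0.98 on the log2 scale, and ERO1A was higher (0.61 ± 0.08). CALR, MANF, CRELD2 and DNAJB9 were lower in PC-9, and DNAJB11, DNAJC3, SDF2L1, CANX, P4HB, ERO1B, DERL2 and DERL3 did not pass with HSPA5. The tolerant arrays of this comparison also enter the SK-216 changes above.

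**Figure D5:**
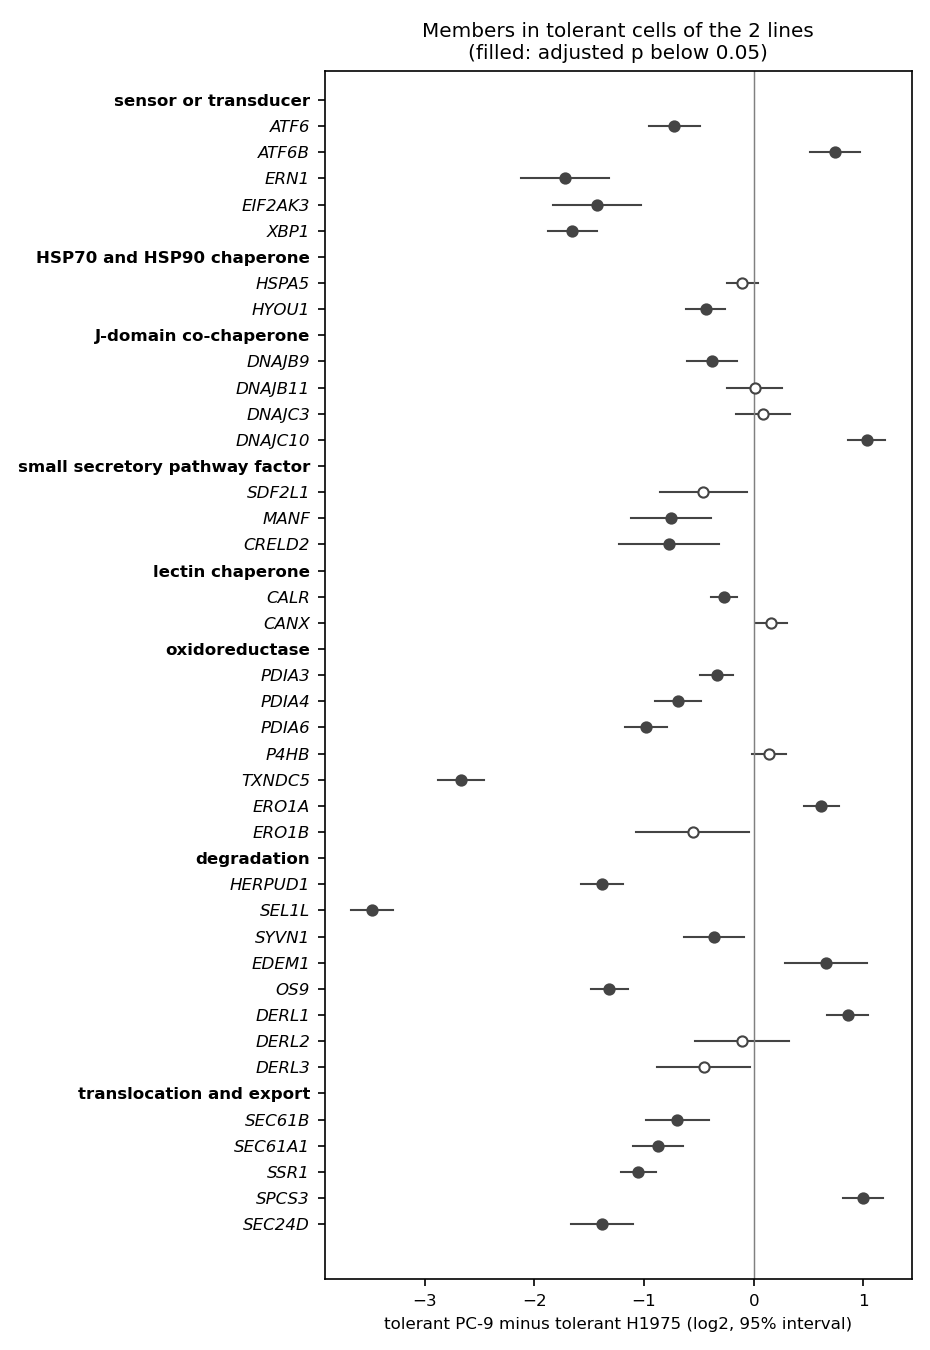
Difference between tolerant PC-9 and tolerant H1975 cells (log2, PC-9 minus H1975, with 95% intervals of the limma fit) for the 36 genes by role; filled points passed the test. Of 27 filled points 21 lie below 0, down to -3.48 for SEL1L, and 6 above, up to 1.03 for DNAJC10.

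A wider list of 159 genes of the same pathways, none of them among the 37, put the changes in context, and 147 were measured. It too was chosen with earlier results of these data known. In H1975, 9 (6.12%) rose and 3 (2.04%) fell with SK-216, against 1.44% and 2.35% of all probe sets, and the median change was -0.0033. The sensor regulators and related factors held 6 of the 12 calls, from 25 measured, and what raised or lowered them was not tested. DDIT3 (CHOP), a transcription factor downstream of EIF2AK3, had 9.25, 9.36 and 9.57 in SK-216 cells, against 7.58, 7.52 and 8.13 in tolerant cells (1.65 ± 0.23, adjusted p = 4.76e-05). ATF4 had 12.33, 12.30 and 12.34 in SK-216 cells, against 11.84, 11.69 and 11.89 in tolerant cells (0.52 ± 0.10, adjusted p = 0.00153). Neither gene's groups overlapped. TMEM33, a membrane protein that binds EIF2AK3, rose (0.55 ± 0.12, adjusted p = 0.00634), and NFYB, a subunit of the factor that binds CCAAT, fell (-0.71 ± 0.16, adjusted p = 0.0105); the NFYB call ended without SK-216 array 1 or tolerant array 3 (highest adjusted p = 0.0915).

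Of 33 further chaperones and folding enzymes, 2 rose and 1 fell in H1975. CLGN, a relative of calnexin, had 5.98, 6.60 and 6.44 in SK-216 cells, against 5.22, 5.10 and 4.49 in tolerant cells (1.40 ± 0.23, adjusted p = 0.000481). Its tolerant mean of 4.94 is below 5.05, so the size of this change is uncertain. HSPA13 changed by 0.42 ± 0.10 (adjusted p = 0.0147) and SDF2, a paralog of SDF2L1, by -0.81 ± 0.18 (adjusted p = 0.00918), so the paralogs moved in opposite directions. The HSPA13 call ended without SK-216 array 2 or 3 or tolerant array 1 or 3, and the SDF2 call without SK-216 array 1 or 3 or tolerant array 3 (highest adjusted p = 0.0912 and 0.0923). Of 20 vesicle export genes, SEC23B, a coat subunit, rose (0.55 ± 0.10, adjusted p = 0.00156) and SAR1A, the GTPase that starts the coat, fell (-0.31 ± 0.08, adjusted p = 0.0336). Of 31 translocation and glycosylation genes SSR3 rose (0.27 ± 0.07, adjusted p = 0.0281). The SAR1A call ended without any one of the 6 H1975 arrays, and that of SSR3 without SK-216 array 1 or 3 or tolerant array 1 or 3 (highest adjusted p = 0.141 and 0.137). None of 25 further degradation genes and none of 13 genes of calcium handling passed. The count of 12 became 7 without SK-216 array 1, SK-216 array 3 or tolerant array 3, and 6 without a variance trend.

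In PC-9, 2 of the 147 genes (1.36%) passed, both higher, against 0.373% of all probe sets, and the median change was 0.11. SIL1, a nucleotide exchange factor of HSPA5, had 10.02, 9.90 and 9.93 in SK-216 cells, against 8.90, 9.41 and 9.36 in tolerant cells (0.73 ± 0.14, adjusted p = 0.0125). ATF4 had 12.23, 12.26 and 12.25 in SK-216 cells, against 11.75, 11.82 and 11.81 in tolerant cells (0.45 ± 0.10, adjusted p = 0.0276). Both genes were higher in every SK-216 array, and ATF4 passed in both lines. The SIL1 call ended without SK-216 array 1 or 2 or tolerant array 1, and that of ATF4 without any one of the 6 PC-9 arrays (highest adjusted p = 0.0705 and 0.141). DDIT3 had 6.27, 5.96 and 6.52 in SK-216 cells, against 5.31, 5.73 and 6.16 in tolerant cells, with overlap (0.52 ± 0.23, adjusted p = 0.396). Its change differed from that in H1975 by -1.13 ± 0.32 (adjusted p = 0.0825).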

How the data were processed

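RNA of 12 samples was hybridised to Affymetrix whole-transcript arrays with 1 colour, 250 ng per array, per the labels' protocols. The authors deposited 1 log2 signal per probe set and array. They used Transcriptome Analysis Console, per the submitters' processing notes. Its version, the summarisation and the normalization were not given in the sources used here. These log2 values as deposited spanned 2.19 to 18.61, with array medians of 6.56 to 6.62, and were not normalized again. Arrays give no read depth, so 3 arrays per group limit the precision.

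Probe sets were named from the platform annotation: 17709 had 1 symbol, 0 several and 3739 none here, and all 17709 Entrez identifiers were found in the RefSeq gene table. No probe set was filtered out. A linear model of 4 group means was fitted to all 12 arrays in limma 3.58.1 (R 4.3.3), with eBayes and a variance trend. Residual degrees of freedom were 8, and the prior ones had a median of 15.0. Contrasts were SK-216 minus tolerant in each line, tolerant PC-9 minus tolerant H1975, and the SK-216 change in PC-9 minus that in H1975. Tests were two-sided, with Benjamini-Hochberg adjustment over 21448 probe sets and a threshold of 0.05; changes are given ± SE.

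The 37 genes, the wider list and the rules were chosen with earlier results of these data known. Every array is given for genes that passed for SK-216 or the difference, HSPA5, ATF6, ERN1, EIF2AK3, XBP1 and the 4 largest absolute changes in PC-9; of the wider list, up to 4 genes per role and contrast with the smallest adjusted p are named. DDIT3 in PC-9, the array values of SEL1L and TXNDC5 in tolerant cells, the other genes of the lines comparison, and the uncalled genes given with a value were chosen after their values were seen, to complete their roles. The olfactory receptor set and the split at a level of 10 were chosen after the values were seen. Motifs were searched in Python 3.11.15, and figures drawn with matplotlib 3.10.9. Alternatives were the variance prior, each line alone, the replicate number as a block, a filter on dim probe sets, quantile or median scaling, array weights, a threshold of 0.01, 1 probe set per symbol, and each array left out.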

Additional observations from a re-analysis of the deposited data

Results flagged for a closer look

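These 4 values are listed because they passed limma's test of the difference of SK-216 changes, PC-9 minus H1975. Of the 147 genes of the wider list, 3 (2.04%) passed as higher, against 1.09% of all probe sets. Of the 36 genes, 1 passed as lower, against 0.331% of all probe sets. None of the 4 calls held without a variance trend or at an adjusted p below 0.01. HSPA5 had a difference of -0.42 (adjusted p = 0.0218), with all 3 H1975 SK-216 arrays above the H1975 tolerant arrays. SDF2 had a difference of 1.20 (adjusted p = 0.0138): it had 9.09, 8.91 and 8.63 in PC-9 SK-216 cells, against 8.50, 8.46 and 8.51 in PC-9 tolerant cells, and 8.19, 8.58 and 8.15 in H1975 SK-216 cells, against 8.97, 8.86 and 9.52 in H1975 tolerant cells. Its arrays separated in both lines, in opposite directions. NFYB had a difference of 0.95 (adjusted p = 0.0310), with a change of 0.24 ± 0.16 in PC-9 and -0.71 ± 0.16 in H1975. FKBP2, a peptidyl-prolyl isomerase, had a difference of 0.85 (adjusted p = 0.0376), with a change of 0.46 ± 0.15 in PC-9 and -0.39 ± 0.15 in H1975, neither of which passed alone. With 1 array left out at a time, the SDF2 call was lost in 2 of 12 fits, without PC-9 SK-216 array 1 or H1975 tolerant array 3. The NFYB call was lost in 7, without PC-9 SK-216 array 1 or 2, PC-9 tolerant array 1 or 2, H1975 SK-216 array 1 or 3, or H1975 tolerant array 3. The FKBP2 call was lost in 9, kept only without PC-9 tolerant array 2, H1975 SK-216 array 3 or H1975 tolerant array 2. The highest adjusted p-values were 0.0555, 0.110 and 0.115. With 3 arrays per group, no group was large enough for a test of single outlying arrays.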

How the results depend on the processing

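Without a variance trend the number of the 36 genes that passed was 3 in H1975 (10 as reported), and with adjusted p below 0.01 it was 6; in PC-9 it was 1 with the dimmest 30% of probe sets left out (0 as reported). For the difference between the lines (1 as reported) it was 0 without a trend, with the replicate block and at 0.01, 2 without the dimmest probe sets and 3 with quantile normalization. In the wider list it was 6 without a trend and 6 at 0.01 in H1975 (12 as reported), and in PC-9 (2 as reported) 0 without a trend and at 0.01, and 1 with each line alone, the replicate block or quantile normalization. Leaving out each array in turn gave 7 to 11 genes in H1975, 0 in PC-9, 0 to 2 for the difference and 25 to 28 between the tolerant lines, and 7 to 14 of the wider list in H1975 and 0 to 2 in PC-9. Over the other settings the tolerant lines gave 26 to 30. The median change of the 36 genes ran from 0.17 to 0.24 for H1975 and from 0.12 to 0.21 for PC-9. Signs turned for changes near 0 that had not passed: HSPA5 in PC-9 with quantile normalization (-0.029), ERN1 in PC-9 with array weights (0.012), and with arrays left out ERN1 in H1975 (-0.363 to 0.032) and PC-9 (-0.16 to 0.14), SEC61B in H1975 (-0.31 to 0.0033), SDF2L1 in PC-9 (-0.055 to 0.245) and EIF2AK3 in PC-9 (-0.12 to 0.28). Where a setting moved a count, the cause was not tested.

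Replicate numbers gave no clear pairing of the arrays. The deviations of same-numbered SK-216 and tolerant arrays from their group means correlated at 0.0073, -0.0912 and -0.0852 in H1975. In PC-9 the values were 0.0295, 0.0203 and 0.0152. Between arrays of other numbers they ran from -0.0092 to 0.0941 in H1975 and from -0.0374 to 0.0186 in PC-9. With 3 arrays per group, such values cannot exclude a pairing. With the replicate block 10 genes passed in H1975, 0 in PC-9 and 0 for the difference, where HSPA5 had an adjusted p of 0.0681, and 10 genes of the wider list in H1975. The block and the fit of each line alone were not run for the tolerant lines, and the single-line fit not for the difference. Without H1975 SK-216 array 2 the difference between the lines passed for 2 genes, 1 in each direction.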
